A study of Mus musculus with 12 samples.

Results

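The loci of Runx1, Runx3 and Cbfb were examined for FoxP3 binding by ChIP-seq in regulatory T (Treg) cells, whose identity this forkhead factor maintains. Peaks were taken by position alone, where the summit lay in a window of the mouse build mm9: chr16:92550000-92950000 for Runx1, chr4:134600000-134800000 for Runx3 and chr8:107660000-107760000 for Cbfb. Over the 6 peak lists 65 of 53228 peaks met this rule. Joining peaks across libraries wherever they shared 1 bp or more gave 27 of 24765 regions, with 16 at Runx1, 8 at Runx3 and 3 at Cbfb. Regions are numbered below by position within each locus.

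The Treg cells came from C57BL/6J mice whose FoxP3 carried the substitution A384T (A384T) or was wild type (WT), with 3 ChIP libraries per genotype. Both lines carried a human CD2 (hCD2) reporter, and the CD4+ hCD2+ cells of lymph nodes and spleen were sorted magnetically and fixed without culture or treatment. An affinity-purified rabbit polyclonal antibody made in house was used on all 6. Neither the age of the mice nor whether replicates came from separate animals or pools is given in the labels, so the p-values below reflect no more than how far these libraries scattered, and that scatter may be technical. Peak lists carry no expression, so the identity of the sorted cells could not be checked against marker levels.

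The ChIP libraries held 17520951 to 25386770 unique tags, and their lists on the standard chromosomes ran from 1746 to 20723 peaks. The longest lists were those of replicate 1 of both genotypes, with 18147 peaks in A384T and 20723 in WT, and these were the libraries read with 51 bp tags. Their ChIP tags were also the most redundant, at 30% in A384T and 39% in WT, against 18 to 21% in the others. The other 4, read with 49 bp tags, had 6657 and 2050 peaks in A384T and 1746 and 3905 in WT. Every list held only peaks past the authors' q-value cutoff of 1e-10, and where a list lacks a region, FoxP3 may still have been bound there below it.

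Runx1 and Runx3 are DNA-binding subunits of core binding factor. They recognise DNA through the Runt domain, and Cbfb, a partner that does not contact DNA itself, stabilises that binding. In Treg cells Runx-Cbfb complexes bind the Foxp3 gene and help to keep it expressed, and FoxP3 protein associates with Runx1. The loci therefore encode partners of the factor that was precipitated. The comparison asked whether FoxP3 with the substitution occupied these loci as the wild-type protein did.

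The promoters of these genes hold letters that Runx and forkhead proteins are known to recognise, and the stretches with matches are shown for that reason. RefSeq promoters (GRCm38.p6, 250 bases before to 50 after a start) were found for all 3 genes, 5 in number, and were searched on both strands for the Runx core TGTGGT and the forkhead words TGTTTAC and TGTTTGC. A Runx1 and a Runx3 promoter shared a run of 18 bases, with 2 Runx matches in each, here on the opposite strand as ACCACA. It was the longest between Runx1 and Runx3 promoters read on each gene's strand, and Cbfb was not compared. Among all promoters, 4 of 32851 held this run, including those it was taken from. It was picked for its length, so its rarity cannot be read as a trait of these genes. The longest runs between other pairs of promoters were not computed. Of all promoters 16.8% had at least 1 Runx match and 1.78% at least 2. TGTTTGC occurred in 1 Runx1 promoter and in the Cbfb promoter, against 5.07% of all promoters, and TGTTTAC in none of the 5, against 3.65% of all. The other Runx1 promoter and the other Runx3 promoter had no match to any of the words. Other spellings of either site were not searched, and stand in lower case where a stretch below holds one. Capitals mark the matches, and every stretch is 30 bases, read 5′ to 3′ on the gene's strand in GRCm38.p6:
Runx1, Runx pair, chr16:92826025-92826054, minus strand: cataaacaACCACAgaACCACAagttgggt
Runx3, Runx pair, chr4:135120503-135120532, plus strand: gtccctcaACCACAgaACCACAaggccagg
Runx1, forkhead word, chr16:92826282-92826311, minus strand: caggggatttcTGTTTGCttgtttgttgtg
Cbfb, forkhead word, chr8:105170567-105170596, plus strand: atggtgcgtctTGTTTGCtagagtttgagg

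These positions are of another build than the peaks and cannot be set against them. For the same reason no peak was placed in an exon, an intron or a promoter. In RefSeq's gene order the nearest protein-coding neighbours are Clic6 and Setd4 for Runx1, Syf2 and Clic4 for Runx3, and Ces4a and D230025D16Rik for Cbfb, and a peak in a window may lie nearer to one of these.

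FoxP3 peaks were found at all 3 loci in both genotypes, and most of the recurrent ones lay at Runx1. The Runx1 window of 400 kb was also the widest, against 200 kb at Runx3 and 100 kb at Cbfb. Runx1 had 9, 7 and 1 peaks in A384T replicates 1, 2 and 3 and 15, 5 and 4 in WT replicates 1, 2 and 3. Runx3 had 7, 3 and 1 peaks in A384T and 7, 1 and 0 in WT. Cbfb had 3, 1 and 0 peaks in A384T and 1, 0 and 0 in WT. At each locus the counts of the genotypes overlapped, and in each genotype replicate 1, the longest list, had the most peaks. The means were 5.67 ± 4.16 in A384T and 8.0 ± 6.08 in WT at Runx1, 3.67 ± 3.06 in A384T and 2.67 ± 3.79 in WT at Runx3, and 1.33 ± 1.53 in A384T and 0.333 ± 0.577 in WT at Cbfb (SD, n = 3 each; two-sided exact permutation p = 0.7, 0.8 and 0.7).

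**Figure D1:**
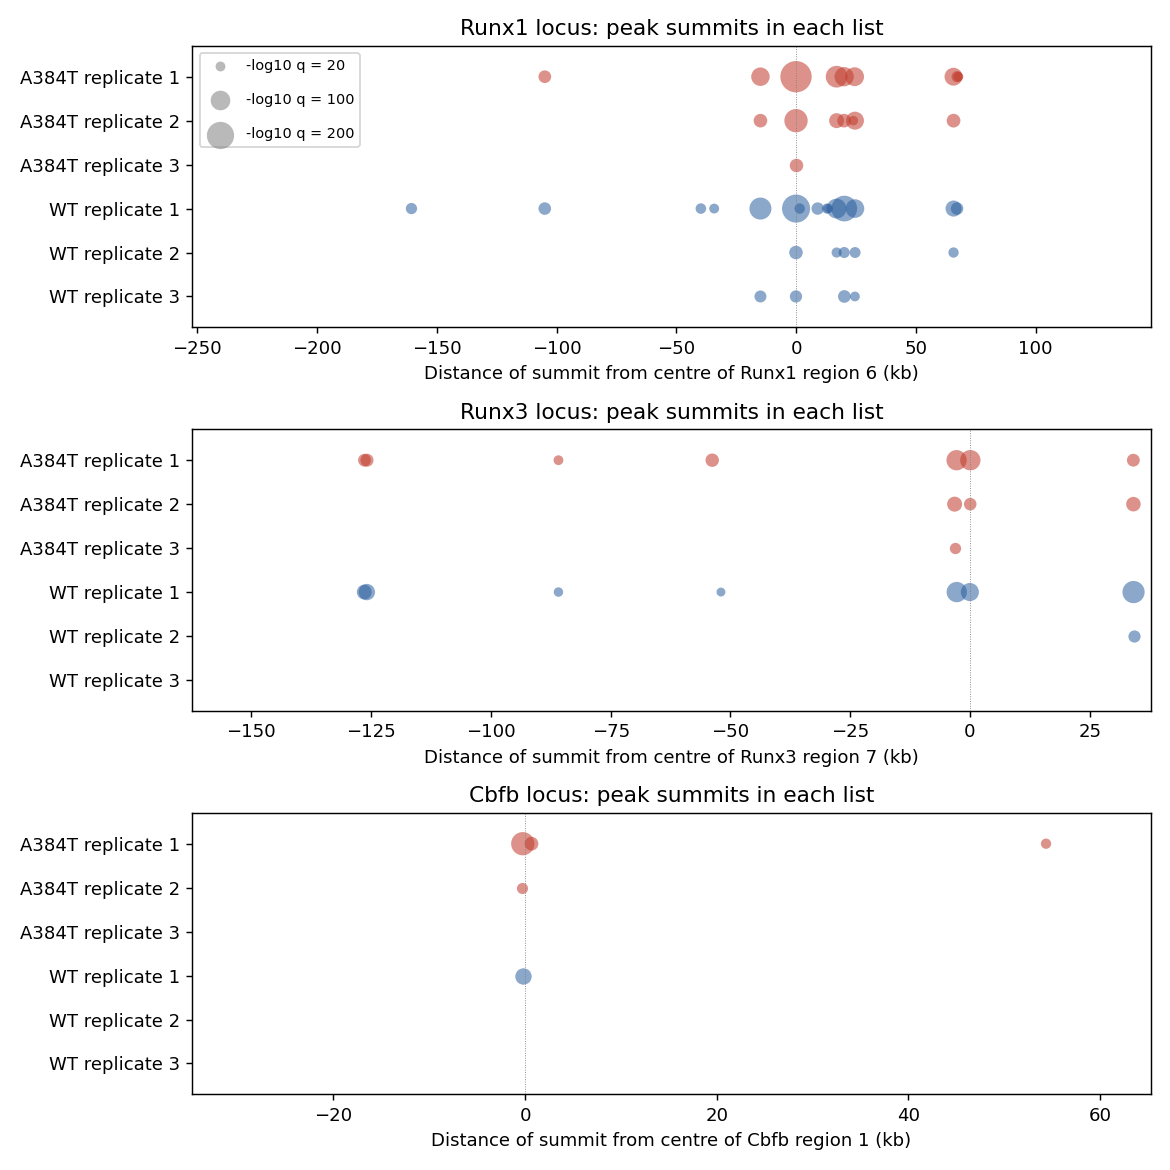
Peak summits at the Runx1, Runx3 and Cbfb windows in each library, by distance in kb from the centre of Runx1 region 6, Runx3 region 7 or Cbfb region 1; A384T is red, WT is blue, and the area of a point grows with the authors' -log10 q. Runx1 regions 6 to 13 span 25.0 kb and hold summits of both genotypes, and WT replicate 3 has no point at Runx3.

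Of the 27 regions, 15 had a peak in both genotypes, 4 in A384T lists only and 8 in WT lists only. Over all regions the shares were 56.0% in both genotypes, 17.2% in A384T lists only and 26.8% in WT lists only. The 12 regions seen in a single genotype were each seen in a single library, as were 42.4% of all regions, 4 in A384T replicate 1 and 8 in WT replicate 1. Their peaks had a -log10 q from 19.35 to 45.82 in A384T replicate 1 and from 14.78 to 35.73 in WT replicate 1. With those found in both replicate 1 libraries and no other, 17 of the 27 rested on these libraries alone, against 71.1% of all regions. All 3 A384T libraries had a peak in 2 of the 27, where 7.63% of all regions did, and all 3 WT libraries had one in 3, where 6.21% did. No region had a peak in at least 2 A384T libraries and no WT library, a class that held 0.763% of all regions, and none had a peak in at least 2 WT libraries and no A384T library, which held 0.872%. The stricter classes of all 3 libraries of a genotype and none of the other were therefore empty at the loci too, and held 0.186% of all regions for A384T and 0.0121% for WT. Without WT replicate 1, 3 of the 19 regions left at the loci had a peak in at least 2 A384T libraries and no WT library, namely Runx3 regions 6 and 7 and Cbfb region 1, against 16.5% of all regions under the same omission.

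A peak in at least 4 libraries was found for 8 of the 27 regions, against 14.04% of all regions. Of these, 6 of 16 were at Runx1 and 2 of 8 at Runx3, with none of 3 at Cbfb. In 6 of the 8 the summits of all libraries lay within less than 100 bp of each other, and the median span was 53 bp.

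Because list length sets how many weak peaks appear, the loci were also compared in the 1746 strongest peaks of each list by -log10 q, the length of the shortest. Runx1 then had 2, 3 and 1 peaks in A384T and 3, 5 and 3 in WT, or 2.0 ± 1.0 in A384T and 3.67 ± 1.15 in WT (SD, n = 3 each). Only the value of 3 occurred in both genotypes. The difference of -1.67 did not pass the two-sided exact permutation test (p = 0.3, where 3 against 3 libraries allow none under 0.1), and it turned to 0.33 when peaks were ordered by fold enrichment, was -0.33 in lists of 1000 peaks and was -1.0 without WT replicate 2. Runx3 had 2, 2 and 1 peaks in A384T and 1, 1 and 0 in WT, or 1.67 ± 0.577 in A384T and 0.667 ± 0.577 in WT, a difference of 1.0 (SD, n = 3 each; exact permutation p = 0.3) that was 0 in lists of 1000 peaks and 0.667 without WT replicate 3. Cbfb had 1, 0 and 0 peaks in A384T and none in WT, and that peak came from A384T replicate 1. Within the 49 bp libraries the means were 2 in A384T and 4 in WT at Runx1, 1.5 in A384T and 0.5 in WT at Runx3, and 0 in both at Cbfb, and 2 against 2 allows no p under 0.333. The 51 bp libraries gave 1 value per genotype, 2 in A384T and 3 in WT at Runx1, 2 in A384T and 1 in WT at Runx3, and 1 in A384T and 0 in WT at Cbfb.

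**Figure D2:**
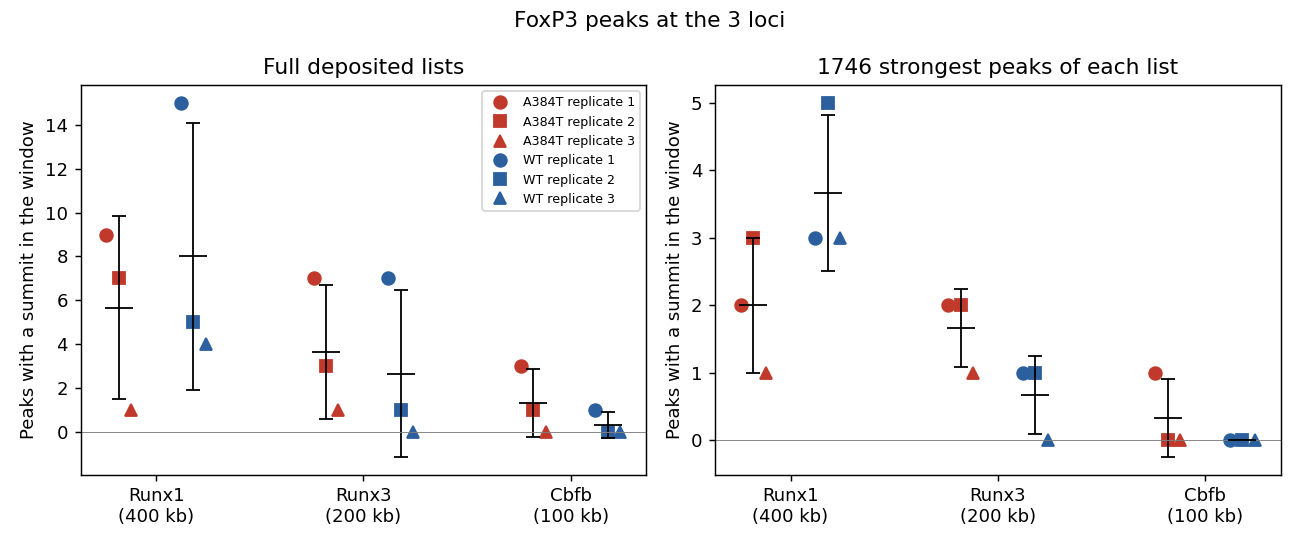
Number of peaks with a summit in each window, in the full lists (left) and in the 1746 strongest peaks of each list (right); A384T is red and left of WT in blue, symbols are replicates, and black lines are the mean with the SD of 3 libraries. In the equal lists Runx1 has 1 to 3 peaks in A384T and 3 to 5 in WT, and Runx3 has 1 or 2 in A384T and 0 or 1 in WT.

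The 1746 strongest peaks of each list joined into 3742 regions over the genome, of which 10 lay at the loci. Of these 10, 1 was in all 6 lists, against 13.4% of all, and 4 were in both genotypes, against 45.0%. A further 3 were in A384T lists only, against 29.6%, and 3 in WT lists only, against 25.4%. All 3 A384T lists held 2 of the 10, against 23.1%, and all 3 WT lists held 2, against 25.2%. At least 2 A384T lists and no WT list held 1, Runx3 region 6, against 9.59% of all. At least 2 WT lists and no A384T list held 2, Runx1 regions 5 and 12, against 9.09%. A single list held 3, against 36.3%, and replicate 1 lists alone held 2, against 16.4%.

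Set against stretches of the genome of the same size, Runx1 was among the windows with more of these peaks in most libraries. In the equal lists 13.2 to 17.96% of 6581 windows of 400 kb had any peak. As many as at Runx1 were found in 5.36, 2.48 and 16.5% of them in A384T replicates 1, 2 and 3 and in 2.36, 0.957 and 2.52% in WT replicates 1, 2 and 3. As many as at Runx3 were found in 2.096, 2.50 and 9.33% of 13169 windows of 200 kb in A384T, and in 8.35 and 7.35% in WT replicates 1 and 2, while WT replicate 3 had no Runx3 peak. At Cbfb the only peak, of A384T replicate 1, was matched by 5.47% of 26350 windows of 100 kb.

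At Runx1, from region 6 to region 13, chr16:92801820-92826823, 8 of the 16 regions lay within 25.0 kb, and 4 of these, regions 6, 11, 12 and 13, had a peak in at least 4 libraries. The other 4, regions 7 to 10, were peaks of WT replicate 1 alone, at the 9.17 to 52.6 percentile of its list by -log10 q. Region 5 lay 14.9 kb to the left of region 6 and region 14 lay 65.7 kb to its right. Regions 5, 11 and 14 are named after their values were seen.

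Runx1 region 6, chr16:92801820-92802270, was the only 1 of the 27 with a peak in all 6 libraries, where 3.88% of all regions had one. Its fold enrichment (ChIP over local control background, the authors' value) was 48.4, 37.6 and 13.8 in A384T replicates 1, 2 and 3 and 25.0, 11.01 and 8.44 in WT replicates 1, 2 and 3. These folds are each list's own values and share no scale between libraries. It was the strongest peak of the locus by -log10 q in every A384T list and in WT replicates 1 and 2, and the second in WT replicate 3. From the top of the whole list it stood at position 113, 134 and 402 in A384T and at 322, 345 and 1279 in WT. Such positions come from lists of different lengths and are given as a description here and below. The summits of all 6 libraries fell within 46 bp.

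The order of region 6 among the 962 regions shared by all libraries depended on the measure. By -log10 q it lay at the 91.6, 87.7 and 69.75 percentile in A384T and at 70.5, 67.5 and 23.2 in WT. The genotypes overlapped by these ranks, at 83.0 ± 11.7 in A384T and 53.7 ± 26.5 in WT (SD, n = 3 each; difference 29.3, two-sided exact permutation p = 0.2). Of the 962 regions 24.8% had ranks without overlap, 11.5% with A384T higher and 13.3% with WT higher. By fold enrichment it lay at 92.4, 92.0 and 70.8 in A384T and at 27.0, 39.9 and 8.52 in WT. Every A384T value was higher by this measure (difference 59.9, exact permutation p = 0.1, the smallest possible), and 7.59% of the shared regions were without overlap in that direction, 8.32% in the other and 15.9% in either. By pileup, the tags stacked at the summit, it lay at 88.9, 78.2 and 64.5 in A384T and at 85.7, 77.5 and 50.9 in WT, a difference of 5.82 with overlapping groups (exact permutation p = 0.6); of all shared regions 26.4% were without overlap by pileup, 12.4% with A384T higher.

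Fold enrichment is the ratio of ChIP to a local control background, and that background was recovered from each peak's pileup and fold. Which input library served as control for a list is known only by a code in the file headers. In every list the lowest background lay within 0.028% of the genome-wide floor computed from the tag numbers in the file header. At region 6 the background was 2.1, 1.31 and 1.85 times this floor in A384T and 5.24, 3.38 and 4.21 times in WT, so it was lower in every A384T list. The means were 1.75 ± 0.40 in A384T and 4.28 ± 0.93 in WT (SD, n = 3 each; exact permutation p = 0.1, the smallest possible), and 4.57% of the shared regions were without overlap in that direction and 2.91% in the other. Since it was computed from the fold, it is the fold and the pileup written in another way and no separate measurement. The pileup itself was 195, 112 and 54 in A384T and 208, 65.1 and 62 in WT, which overlapped. These pileups share no scale between libraries, and those of replicate 2 of both genotypes were scaled down, as ChIP tags outnumbered control tags there. Region 13 had a background of 1.80 and 2.38 times the floor in A384T replicates 1 and 2 and of 4.19, 2.70 and 3.61 times in WT, which did not overlap. Region 11 had 1.80 and 1.11 times in A384T replicates 1 and 2 and 2.62 and 2.03 times in WT replicates 1 and 2, which did not overlap either. Fewer lists make such separation easier, and the share over all regions in these same lists was not computed. Regions 13 and 11 are therefore description only. The values overlapped at the other 3 recurrent Runx1 regions, 5, 12 and 14. Region 12 had 1.95 and 1.59 times in A384T replicates 1 and 2 and 2.1, 2.03 and 1.51 times in WT. Region 5 had 2.42 and 1.0 times in A384T replicates 1 and 2 and 1.73 and 1.0 times in WT replicates 1 and 3. Region 14 had 1.0 and 1.96 times in A384T replicates 1 and 2 and 2.1 and 1.35 times in WT replicates 1 and 2. This background was looked at after the ranks were seen.

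**Figure D3:**
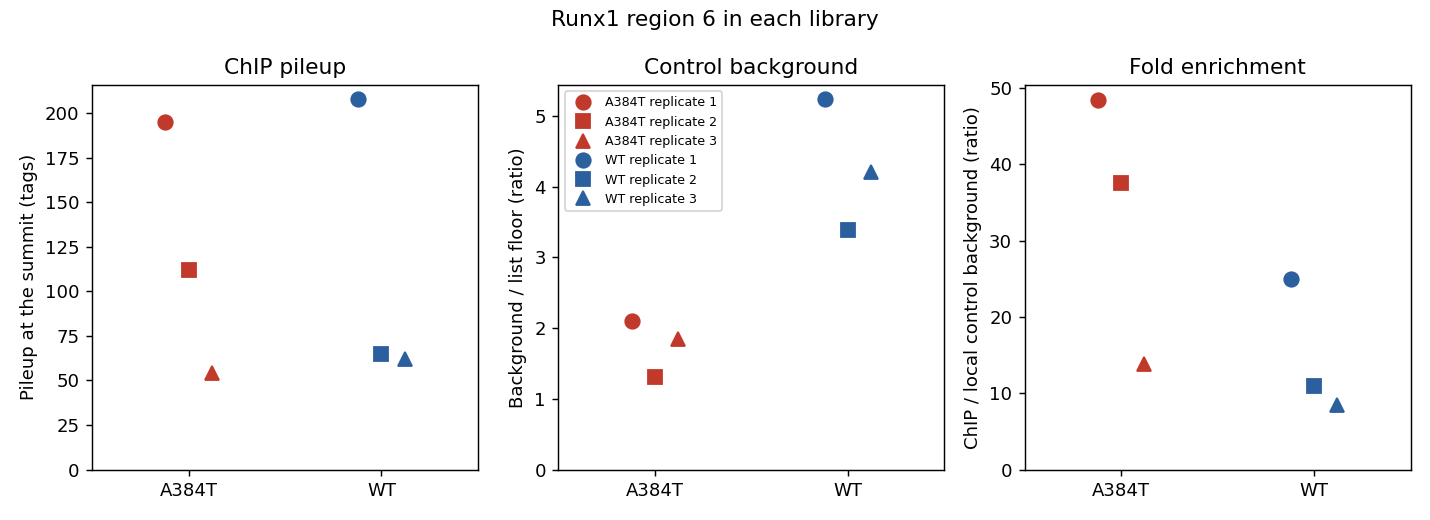
Runx1 region 6 in each library: pileup at the summit in tags (left), control background as a multiple of the list's genome-wide floor (middle) and fold enrichment (right), with A384T in red left of WT in blue and symbols for replicates. The pileups, scaled within each list and on no scale shared by libraries, overlap between the genotypes, while the control background is 1.31 to 2.1 in A384T and 3.38 to 5.24 in WT.

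Runx1 regions 12 and 13 had a peak in all 3 WT libraries and in A384T replicates 1 and 2. Without A384T replicate 3 they joined region 6, so that 3 regions were present in all of the remaining libraries, where 6.03% of all regions were. Region 12, chr16:92821900-92822624, had a fold of 23.7 and 15.2 in A384T replicates 1 and 2 and of 36.2, 10.4 and 13.9 in WT replicates 1, 2 and 3. It stood at position 2155 and 1907 in the A384T lists, with no peak in the 2050 of replicate 3, and at 568, 893 and 1095 in the WT lists. In lists of 1746 peaks it was in all 3 WT lists and no A384T list, as were 3.21% of all regions joined from these lists, and 1 of the 10 at the loci. It left this class with lists of 1000 or 2000 peaks and with order by fold, and stayed in it with 1500 peaks and with order by pileup.

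Region 13, chr16:92825625-92826823, was the widest at the loci. Its peak spanned 1197 bp in A384T replicate 1 and 1145 bp in WT replicate 1, at the 99.8 percentile of peak width in the A384T list and the 99.3 percentile in the WT list. In A384T replicate 2 it was split into peaks of 156 and 562 bp. Its fold was 23.8 and 19.4 in A384T replicates 1 and 2 and 15.7, 9.17 and 6.57 in WT replicates 1, 2 and 3. It stood at position 2398 and 587 in A384T and at 2594, 909 and 3038 in WT.

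The other recurrent Runx1 regions had a peak in 2 libraries of each genotype. Region 5 had a fold of 20.1 and 17.97 in A384T replicates 1 and 2 and of 31.2 and 14.6 in WT replicates 1 and 3. Region 11 had 29.6 and 19.998 in A384T replicates 1 and 2 and 21.8 and 9.05 in WT replicates 1 and 2. Region 14 had 27.7 and 14.2 in A384T replicates 1 and 2 and 17.7 and 10.9 in WT replicates 1 and 2. All 3 were missing from A384T replicate 3, which had no Runx1 peak other than region 6.

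**Figure D4:**
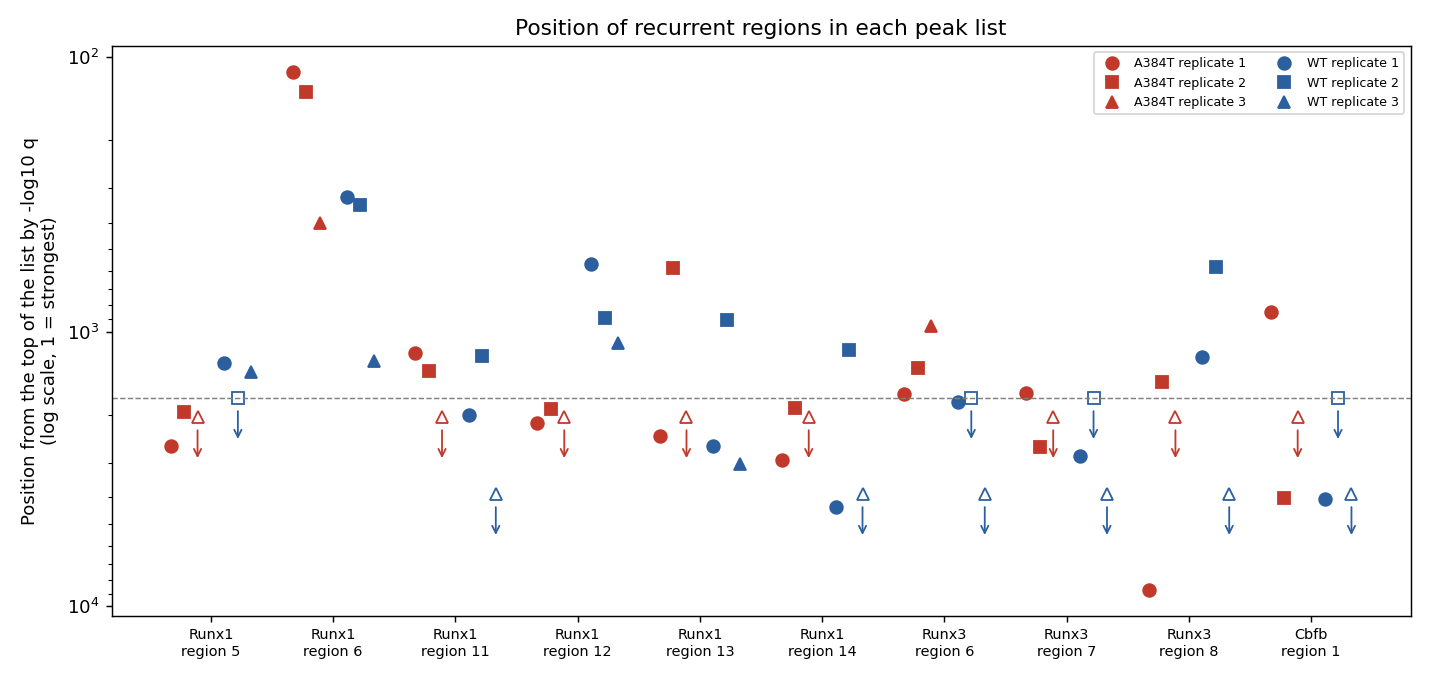
Position of recurrent regions from the top of each full list by -log10 q (log axis, strongest at the top); A384T is red and left of WT in blue, symbols are replicates, open symbols with arrows mark lists without the region at the length of that list, and the dashed line is position 1746. Runx1 region 6 lies above the dashed line in all 6 lists, and Runx1 region 12 lies above it in the WT lists only.

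Runx3 had regions 6 and 7 within 3.7 kb, with region 8 33.77 kb further right. Region 6, chr4:134758835-134759761, had a peak in all 3 A384T libraries, at a fold of 20.3, 16.1 and 8.56, and in WT replicate 1 at 20.7. It stood at position 1680, 1356 and 955 in A384T and at 1806 in WT replicate 1. In lists of 1746 peaks it was therefore in all 3 A384T lists and no WT list, as were 3.53% of all regions there. That rested on positions just inside and just outside the limit, 1680 in A384T replicate 1 and 1806 in WT replicate 1, and region 6 left this class with 1000, 1500 or 2000 peaks and with order by fold or pileup. The region was broad, and its summits lay at 134759523 in A384T replicate 1 and 134759558 in WT replicate 1, but at 134759116 and 134759090 in A384T replicates 2 and 3. The summits of the 51 bp libraries thus lay together, as did those of the 49 bp libraries that held the region. The latter were A384T libraries only, as no WT library with 49 bp tags held it.

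Region 7 of Runx3, chr4:134762094-134762514, had the highest mean percentile of -log10 q at the locus over the lists that hold it, 79.2 over 3 lists, with 78.7 for region 6 over 4 lists. In the 3 lists with both, region 6 was higher in A384T replicate 2 and WT replicate 1 and region 7 in A384T replicate 1. Region 7 had a fold of 17.5 and 10.8 in A384T replicates 1 and 2 and 17.5 in WT replicate 1. Region 8, chr4:134796288-134796579, named after its values were seen, had a fold of 10.4 and 18.005 in A384T replicates 1 and 2 and of 39.4 and 15.6 in WT replicates 1 and 2. Within the lists the order of regions 6 and 8 differed. By -log10 q, region 6 was above region 8 in A384T replicates 1 (107.5 and 38.7) and 2 (55.6 and 51.8), and replicate 3 listed region 6 alone. Region 8 was above region 6 in WT replicate 1 (130.1 and 107.9), and WT replicate 2 listed region 8 alone. By fold enrichment, however, region 8 was above region 6 in A384T replicate 2 (18.005 and 16.1). WT replicate 3 listed neither, so the order by -log10 q rests on 3 A384T and 2 WT lists. Of these, A384T replicate 3 and WT replicate 2 each lacked 1 of the regions. The pair was picked after its values were seen, and its order was not tested or set against other pairs of regions. The control background at region 8 was 3.15 and 1.31 times the floor in A384T replicates 1 and 2 and 1.01 and 1.00 times in WT replicates 1 and 2.

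The remaining Runx3 regions were seen in the replicate 1 libraries only. These regions, 1 to 5, are also given after their values were seen. Regions 1 and 2, together at chr4:134635805-134636568, had folds of 12.3 and 13.7 in A384T replicate 1 and of 15.7 and 20.98 in WT replicate 1. Region 3 had a fold of 6.19 in A384T and 5.95 in WT. Region 4 was listed in A384T replicate 1 alone, at 12.04, and region 5 in WT replicate 1 alone, at 6.09.

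Cbfb, the gene of the non-DNA-binding subunit, had the fewest peaks, in the narrowest of the windows. Its region 1, the first of the locus in every list that held it, chr8:107694314-107695131, had a fold of 27.1 and 7.58 in A384T replicates 1 and 2 and of 13.1 in WT replicate 1. It stood at position 846 and 4023 in A384T and 4048 in WT. Its peak was 818 bp wide in A384T replicate 1, against 218 bp in A384T replicate 2 and 345 bp in WT replicate 1. A384T replicate 1 also had region 2, which began 0.16 kb further right, at a fold of 10.7, and region 3, 54.4 kb from region 1 between centres, at 8.1. Regions 2 and 3 are named after their values were seen. The other 3 libraries, A384T replicate 3 and WT replicates 2 and 3, listed no Cbfb peak, and their lists were the shortest of the 6.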

How the data were processed

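The 6 ChIP libraries each had a peak list, and the 6 input libraries named in the labels were not analysed here as samples. Bowtie2, MACS2 and the build mm9 are listed in the submitters' processing notes. Per the file headers, the authors called peaks on each library with MACS 2.1.0.20140616 against 1 control, with 1 tag kept per position, and the larger set scaled towards the smaller. The deposited values are positions, pileup (a signal at the summit), -log10 p and q, and fold enrichment (a ratio to local control). They order peaks within a list and are no scale shared by libraries.

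Unplaced sequences and the mitochondrial genome were left out, which leaves 21 chromosomes. Groups came from the sample titles. Joining and ranks were tested on simulated lists. Control background was (pileup + 1)/fold - 1, divided by unique tags of the smaller set times fragment length over genome size. Values per library were compared by two-sided exact permutation; no p could fall under 0.1, so none was adjusted over the comparisons. Alternatives were other list lengths, orderings, overlap rules, window limits, a replicate block, the 49 bp libraries alone and each library left out. The members and lists were chosen with earlier results of these data known. The regions named were those in all libraries of a genotype, in at least 2 of one and none of the other, and the best-ranked per locus by mean percentile of -log10 q over the lists that hold a region; others are marked. Python 3.11.15, numpy 2.4.6, pandas 2.3.3 and matplotlib 3.10.9 were used.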

Additional observations from a re-analysis of the deposited data

How the results depend on the processing

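Of 114 alternatives to 9 results 92 left the direction or the count within 1.5 times, 21 moved it and 1 reversed it. The cause was not tested. Among the 92 are the replicate blocks of the peak counts, which could not change, since pairing leaves a difference of means as it is. A fold of at least 5, any overlap with the window and wider windows also gave unchanged differences in peak counts. No test could pass 0.05 in this design. The difference at Runx1 of -1.67 became 0.33 with peaks ordered by fold enrichment. In lists of 1000 peaks the difference at Runx1 was -0.33 and that at Runx3 was 0, and that at Cbfb became 0 within the 49 bp libraries. Leaving out each library gave -2.17 to -1.0 at Runx1, 0.667 to 1.33 at Runx3 and 0 to 0.5 at Cbfb. Regions in at least 2 A384T and no WT libraries numbered 1 with summits within 200 bp and 1 in equal lists, and 0 to 3 with each library left out. Regions in at least 2 WT and no A384T libraries numbered 2 in equal lists. Regions in all libraries numbered 1 to 3 with each library left out. Shared regions without overlap of ranks numbered 1 of 1 by fold, against 15.9% of the 962 shared regions. With each library left out they numbered 0 or 1 of 1, but 2 of 3 without A384T replicate 3. The share over all shared regions under these omissions was not computed, and fewer libraries separate more easily. The alternatives for the class of all 3 equal lists of a genotype and none of the other were chosen after seeing the data. The A384T class numbered 0 with 1000, 1500 or 2000 peaks and by fold or pileup. The WT class numbered 0 with 1000 or 2000 peaks and by fold, and 1 to 2 with each library left out.

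By construction the replicate block left the differences at -1.67, 1.0 and 0.33 (exact sign-flip p = 0.25, 0.25 and 1.0, where 3 pairs allow no p under 0.25). In it 1 shared region, Runx1 region 6, had 1 sign in all pairs, as did 45.5% of the 962 shared regions. Same-numbered libraries deviated together with correlations of 0.165, 0.095 and 0.113, each the highest of its library. All other pairs had negative correlations, from -0.1 to -0.009. These were deviations of presence in the equal lists from the mean of each genotype. A library's covariances with the libraries of the other genotype therefore cancel out, so some negative values were fixed in advance. The labels state no pairing, and the permutation tests above take none into account. List length did not follow depth: the deepest ChIP library, WT replicate 2 with 25386770 unique tags, had the shortest list.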
